A study of Mus musculus with 75 samples.

Results

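The libraries described here come from cultures in which CD4 effector T cells carrying tagged ribosomes were stimulated in the presence of regulatory T cells (Tregs). They were chosen by their titles and labels as the RiboTag cultures with beads and Tregs, and they make up 10 of the 75 libraries of the series: 5 of RNA precipitated with the tag (IP) and 5 of the RNA of the same cultures before precipitation (Input). The 5 IP and 5 Input libraries were paired by the mouse number, which both carry. Effector cells, sorted as CD4+CD25-, were taken from lymph nodes and spleen of B6.Cg-Tg(Cd4-cre)1Cwi/BfluJ mice crossed to B6N.129-Rpl22tm1.1Psam/J. In that cross Cre driven by Cd4 switches on a hemagglutinin-tagged Rpl22, a protein of the large cytosolic ribosomal subunit, in T cells that have passed through a Cd4-expressing stage. All RiboTag cultures, those without Tregs included, hold effector cells of that cross. The Tregs were sorted as CD4+YFP+ cells, and the protocol names Foxp3YFP-Cre mice as a source of sorted cells. The labels state neither the age of the mice, the number of Tregs and the culture time, nor whether the Tregs carried the tag or were taken out before lysis. The cultures set against the cocultures were those of the same 5 mice stimulated with anti-CD3/CD28 beads alone, and those rested with IL7 (10 libraries each). Per the protocol, cultures without Tregs held either more effector cells or, in some cases, CD45.1+ effector cells of other mice to keep the density equal, and which of them did is not stated. A further 8 libraries of polysomal (Pol) and subpolysomal (SubPol) RNA came from cocultures with effector cells of 4 other mice, B6.SJL-PtprcaPepcb/BoyJ, fractionated on sucrose in an assay the labels call SPEED. The fits of that assay also took its untreated cultures, its stimulated cultures, and stimulated cultures treated with what their titles call HHT.

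RiboTag precipitates whole ribosomes through the tag, and with them the mRNA that tagged cytosolic ribosomes are on. RNA that is not on such ribosomes is recovered only as carry-over. That holds for nuclear RNA, for RNA translated by mitochondrial ribosomes, and for RNA of any cells without the tag. Tregs restrain the activation of other T cells through surface molecules, cytokines and uptake of interleukin 2. By its title the study asked how they act on translation during CD4 T cell activation.

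IP libraries of the cocultures held 1965515 to 2824875 gene counts and Input libraries 1945340 to 2805743. Counts above 0 were found for 13595 to 14607 identifiers in IP and 14521 to 15230 in Input. The tables give Ensembl gene identifiers without names, and 0 of the 53465 identifiers matched an entry of the reference table. So the targeted gene Rpl22, Foxp3 and the marker lists of Tregs and other cells could not be looked up, and the labelled cell type was not checked against its markers. At most 2 genes in each direction are given by identifier.

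The precipitated RNA resembled the Input of its own culture closely. On the scale of log2 CPM (a gene's counts scaled to a fixed library total), over 6940 genes averaging 5 or more, the 5 IP libraries correlated with their own Input at r of 0.92, 0.956, 0.955, 0.953 and 0.916 for mice 1 to 5. IP and Input differed somewhat more in the cultures of mice 1 and 5. The standard deviation of the log2 ratio of IP over Input across those genes was 0.427 and 0.44 in the cultures of mice 1 and 5, against 0.303 to 0.343 in those of mice 2, 3 and 4. The log2 ratios of any pair of cocultures correlated across genes at r of 0.354 to 0.548. Genes of one library are not independent replicates, and the cocultures of a pair share no library.

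In the Treg cocultures, IP exceeded Input for 635 genes (5.91% of those tested) and fell short of it for 572 (5.32%), 1207 of 10751 or 11.2% in all (n = 5 cultures, edgeR quasi-likelihood test with the culture as a block, Benjamini-Hochberg adjusted p under 0.05). Of the 1207, 1076 had the same sign in all 5 cultures. The directions differed in size. Only 1 gene was at least 2-fold higher in IP, while 92 were at least 2-fold lower. The median log2 ratio was 0.28 for the higher genes and -0.55 for the lower ones, and the largest fitted fall, in a gene of low abundance whose value depends on the prior count, was -6.10. The median over all genes tested was 0.008. Genes present in every Input library at 10 or more counts and absent from all 5 IP libraries numbered 0.

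Rises were called mostly among abundant mRNAs. Of the 2627 genes averaging 7 or more on the log2 CPM scale, 463 (17.6%) were higher and 171 (6.51%) lower in IP, 24.1% in all. Of the 1242 genes below 3, 1 was higher and 31 lower, 2.58% in all. The median log2 ratio was 0.076 in the most abundant group and -0.105 in the least abundant group. The median standard error of a gene's log2 ratio was 0.076 in the first and 0.511 in the second, so smaller changes were detectable in abundant genes than in scarce ones.

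**Figure D1:**
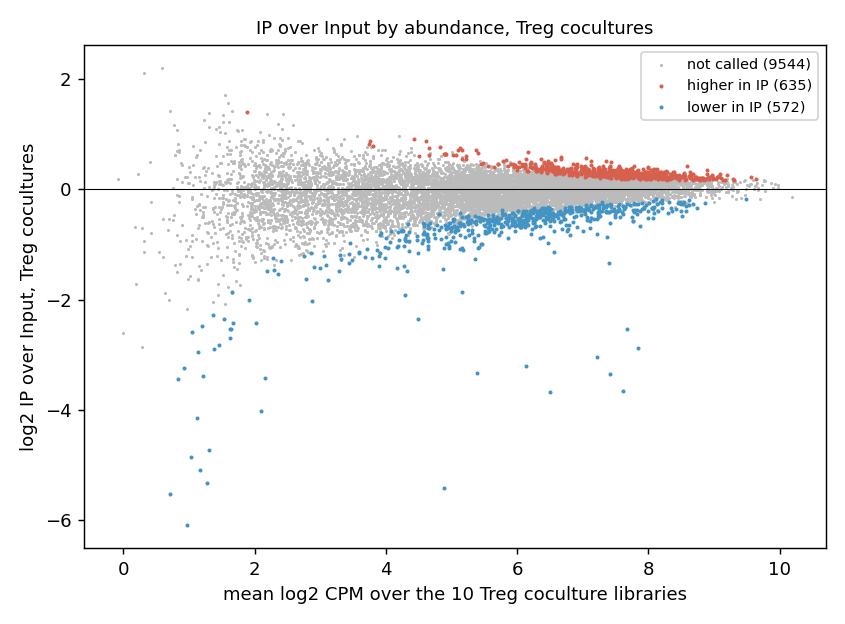
Log2 ratio of IP over Input in Treg cocultures (vertical axis) against the mean log2 CPM over the 10 libraries (horizontal axis), 1 point per gene tested. Red points are the 635 genes called higher in IP and blue points the 572 called lower. The red points form a narrow band at high abundance, while blue points reach -6.10.

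The number of calls fell when any culture or the pairing was left out, and the cause was not tested. Without mouse 5 the test called 335 genes (90 higher, 245 lower), and without mice 1 and 5 it called 125 (34 higher, 91 lower). Without mouse 1, 2, 3 or 4 it called 714, 715, 773 and 631. In a fit that ignored the pairing of IP with its own Input, 199 genes passed, 72 higher and 127 lower. None of the 1207 genes changed sign under any of these settings. The median log2 ratio of the 635 higher genes was 0.32, 0.25, 0.22, 0.28 and 0.36 in mice 1 to 5, and that of the 572 lower genes was -0.66, -0.46, -0.41, -0.51 and -0.68. These genes were chosen by that ratio, so the medians describe their spread between cultures only. The scaling moved the balance of directions. Rises made up 52.6% of the calls with TMM factors, 40.5% with library totals and 41.9% in DESeq2.

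Among genes averaging 3 or more on the log2 CPM scale with the same sign in all 5 cultures, ENSMUSG00000064337 had the largest fall and ENSMUSG00000064345 the next. ENSMUSG00000064337 had 4.27, 5.32, 1.74, 4.19 and 5.74 CPM in the IP libraries of mice 1 to 5, against 243, 162, 178, 179 and 140 CPM in the Input libraries. Every IP library lay more than an order of magnitude below every Input library. The log2 ratio was -5.41 (SE 0.20, adjusted p = 8.96e-15, edgeR), a level 42.6-fold lower in IP. ENSMUSG00000064345 had 17.9, 22, 29.3, 24.6 and 32.5 CPM in IP, against 418, 271, 320, 336 and 277 CPM in Input. Again no IP library approached an Input library. Its log2 ratio was -3.67 (SE 0.16, adjusted p = 8.94e-14, edgeR), or 12.8-fold lower.

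The rises were far smaller and varied between cultures. ENSMUSG00000002489 had 40.4, 27.7, 18.8, 17.8 and 45.0 CPM in IP, against 17.6, 12.1, 15.3, 17 and 14.2 CPM in Input. IP was higher in all 5 cultures, by little in mice 3 and 4 and by far more in mice 1, 2 and 5. The groups came close without overlapping. The log2 ratio was 0.91 (SE 0.28, adjusted p = 0.0383, edgeR). The call was lost without mouse 1 (adjusted p = 0.15, edgeR), mouse 2 (0.134), mouse 5 (0.201), and without the pairing (0.13). ENSMUSG00000022048 had 54.0, 31.5, 25.8, 19.4 and 38.8 CPM in IP, against 20.6, 25.2, 12, 17 and 15.2 CPM in Input. The ranges of the groups overlapped, and each IP library was above its own Input. The log2 ratio was 0.88 (SE 0.20, adjusted p = 0.00663, edgeR), and the call was lost without mouse 1 (adjusted p = 0.0515, edgeR), mouse 5 (0.0713), and without the pairing (0.063).

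**Figure D2:**
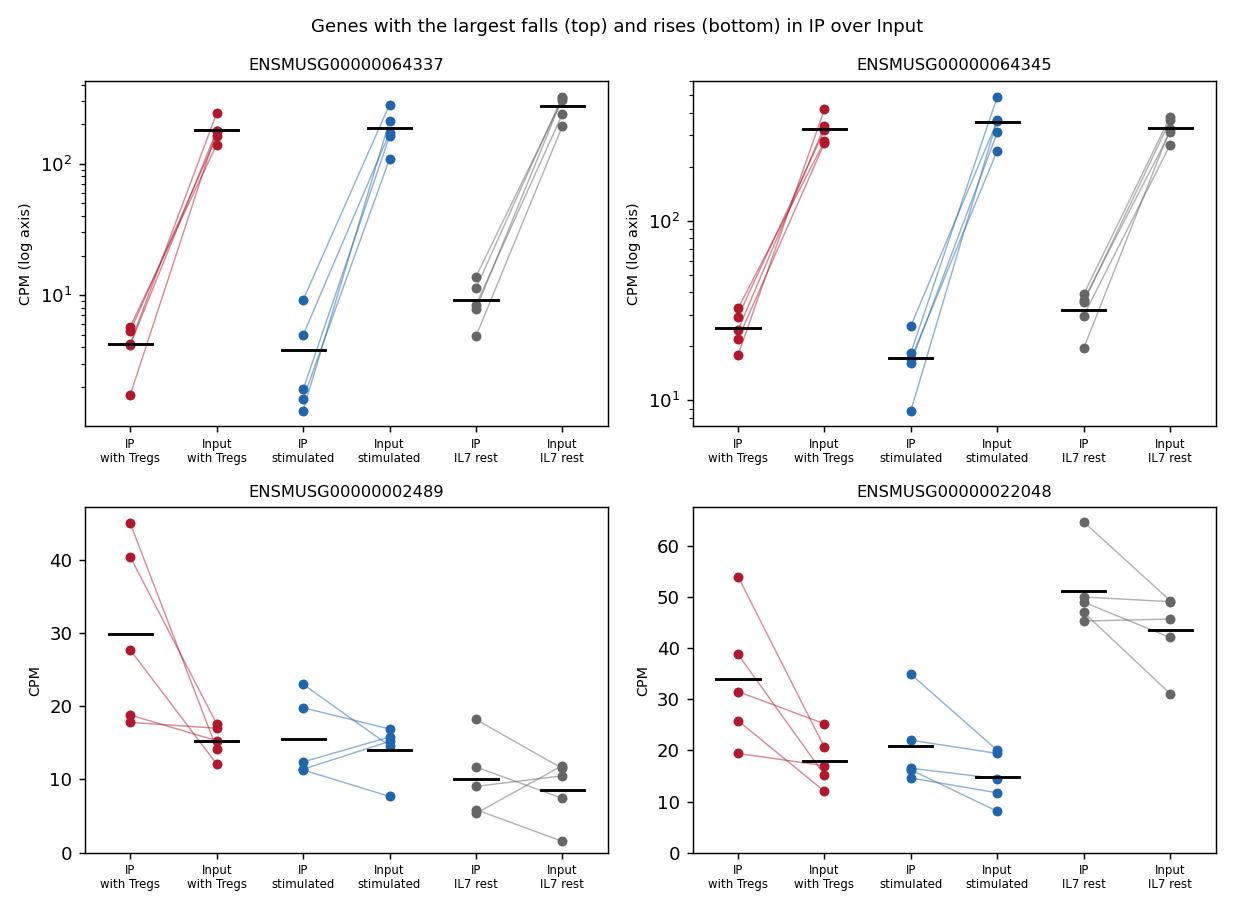
CPM in each library (points), joined within a culture, for the 2 largest falls (top row, log axis) and the 2 largest rises (bottom row, linear axis) in IP over Input of Treg cocultures, among called genes averaging 3 or more on the log2 CPM scale whose 5 cultures moved the same way. Red is with Tregs, blue stimulated alone and grey IL7 rest, with IP left of Input, and black bars are means over 5 libraries. The falls are seen in all 3 kinds of culture, and the rises in the cocultures differ in size between the 5 cultures.

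These 4 genes belong to a list of 10 falls and 10 rises, limited to genes averaging 3 or more on the log2 CPM scale whose 5 cultures moved the same way. The 10 falls ranged from -2.35 to -5.41 on the log2 scale and the 10 rises from 0.65 to 0.91. All 10 falls also passed as lower in stimulated cultures, in IL7-rested cultures and in Pol over SubPol of the SPEED cocultures, where 3.56%, 8.85% and 23.5% of all genes were lower. Of the 10 rises, 0 passed as higher in stimulated cultures, 3 in IL7-rested cultures and 6 in Pol over SubPol, where 4.33%, 9.03% and 30.4% of all genes were higher. Among all 635 genes higher in IP of cocultures those shares were 45.0%, 56.7% and 78.1%. The 0 of 10 is thus near the share of all genes but below that of the 635 genes. The difference in the ratio from stimulated cultures did not pass for any gene.

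The deepest falls shared a feature that had no part in the test. The 9 largest of the 10 falls have identifiers within a span of 34 consecutive numbers. The table lists 33 identifiers in that span, of which 11 had enough counts to be tested and 12 had no count in any of the 10 coculture libraries. All 11 were lower in IP, by -2.54 to -5.41, where 5.32% of all genes were called lower. The tables do not say what these identifiers encode. Summed, the 33 identifiers held 429, 362, 416, 300 and 497 CPM in the IP libraries of mice 1 to 5, and 4750, 3400, 3610, 3840 and 3220 in the Input libraries. IP thus held 10.9 ± 2.92% of the Input level (SD, n = 5), from 7.81% in mouse 4 to 15.4% in mouse 5. The same percentage was 7.86 ± 2.25% in stimulated cultures and 12.3 ± 1.30% in IL7-rested cultures (SD, n = 5 each), and the range in the cocultures overlapped both. In mice 1 to 5 it was 9.03, 10.7, 11.5, 7.81 and 15.4% in cocultures. The stimulated cultures had 8.04, 3.94, 9.56, 8.96 and 8.77%, lower than the coculture of the same mouse except in mouse 4. The rested cultures had 11, 11.8, 11.9, 12.2 and 14.5%, higher than the coculture except in mouse 5. The difference in the ratio from stimulated cultures passed for 0 of the 11 genes (edgeR). The 11 genes also fell in both other kinds of culture, by -2.91 to -6.58 in stimulated and by -2.28 to -5.02 in rested cultures. The span was chosen after its values were seen, so it carries no test of its own.

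**Figure D3:**
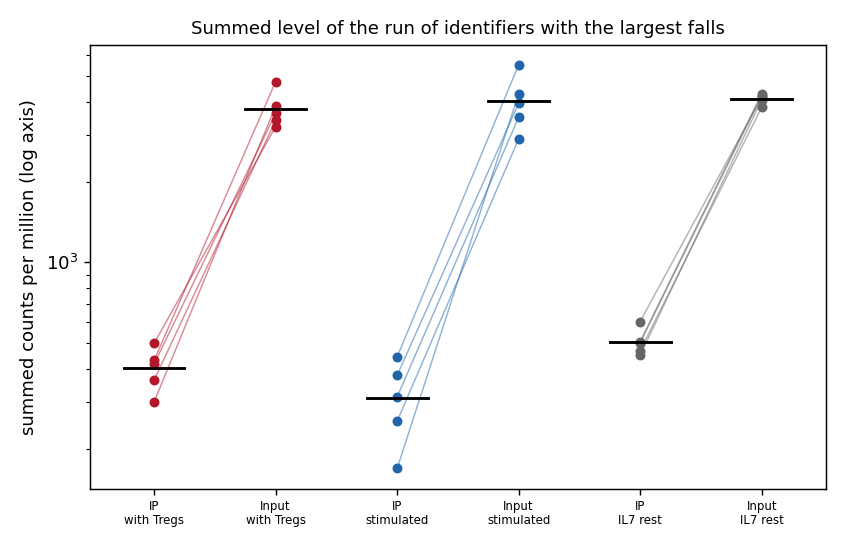
Summed level of the 33 identifiers of the span (CPM, log axis) in each library, joined within a culture, with IP left of Input. Black bars are means over 5 libraries. The coculture IP libraries lie at 300 to 497 and their Inputs at 3220 to 4750, and the stimulated and rested cultures show the same gap.

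A comparison with cultures without Tregs asks whether adding Tregs changed which RNA the tag recovered. In stimulated cultures the test called 466 genes higher (4.33%) and 383 lower (3.56%) in IP, 7.90% of those tested. The cultures share no libraries, but they come from the same 5 mice. Of the 635 genes higher in IP of cocultures, 286 (45.0%) were also higher in stimulated cultures and 0 lower. These are 61.4% of the genes called higher in stimulated cultures. Of the 572 lower genes, 240 (42.0%) were lower there and 0 higher, or 62.7% of the genes called lower in stimulated cultures. Signs were shared by 631 of the 635 and 547 of the 572. Across all 10751 genes the log2 ratios correlated at r = 0.611, and they share the sequence and abundance of each gene.

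The difference between the ratios passed for 0 of 10751 genes (0%), tested as an interaction in edgeR with the culture as a block, which does not match the ratios of a mouse to each other. At an unadjusted p under 0.05 there were 337 genes, where 537.6 would be counted by chance. With an IP effect for each mouse added, so that ratios were compared within mice, 0 genes passed and 377 had an unadjusted p under 0.05. DESeq2 also called 0, with 295 at an unadjusted p under 0.05. Among the 7206 genes averaging 5 or more on the log2 CPM scale in this fit, the 95% interval of the difference had a median half-width of 0.33, and it lay within a 2-fold change either way for 97.5% of them and within 1.5-fold for 74.4%. The 4 printed genes did not pass this test either. ENSMUSG00000064337 had a log2 ratio of -5.41 in cocultures and -5.63 in stimulated cultures, a difference of 0.22 (SE 0.39). ENSMUSG00000064345 had -3.67 and -4.33, a difference of 0.66 (SE 0.26, adjusted p = 0.999, edgeR). ENSMUSG00000002489 had 0.91 in cocultures and 0.13 in stimulated cultures, a difference of 0.77 (SE 0.41, adjusted p = 0.999, edgeR). For ENSMUSG00000022048 the ratios were 0.88 and 0.48 (difference 0.39, SE 0.29).

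From IL7-rested cultures, 18 genes differed in the ratio, 14 higher (0.13%) and 4 lower (0.0372%) in cocultures, 0.167% of those tested (edgeR interaction, n = 5 cultures each). The 14 had a median log2 ratio of 0.19 in cocultures, 0.06 in stimulated and -0.66 in rested cultures, and all 14 were lower in IP than in Input in rested cultures. The 4 had a median of -0.32 in cocultures, -0.01 in stimulated and 0.41 in rested cultures, and 1 of them lies in the span described above. The count varied with the mice, with 0 genes without mouse 3 or mouse 4, 5 without mouse 2, 4 without mouse 5, 55 without mouse 1 and 29 without mice 1 and 5. Compared within mice, 16 genes passed, 14 of them among the 18. Within rested cultures the IP effect itself passed for 971 higher (9.03%) and 951 lower (8.85%) genes, 17.9% of those tested.

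A further comparison asked how the precipitation treated genes whose level is higher when Tregs are present. Since no Treg marker could be named, such genes were taken from other mice and libraries. In SPEED Input, 57 of 12428 genes were higher with Tregs than in stimulated cultures (0.459%, n = 4 mice per group, edgeR), and all 57 were tested in RiboTag. In such bulk samples a different number of cells of a type and a different amount of RNA per cell cannot be told apart. In RiboTag, cocultures were compared with stimulated cultures by group, without a block, so cultures of the same mouse were not matched. The median log2 change of the 57 genes with Tregs was 0.39 in IP and 0.43 in Input, against 0.00 for all genes in both. Of the 57, 18 passed the test as higher in IP and 18 in Input, with 1 lower in each. Of the 10691 genes tested in both assays, 371 were higher with Tregs in IP and 297 in Input.

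In the cocultures 0 of the 57 genes passed as higher in IP and 11 as lower (19.3%, where 5.32% of all genes were called lower), and their median log2 ratio was -0.15 against 0.01 for all genes tested in both assays. The count was 1 without the pairing, 5 without mouse 5, 7 without mouse 2 and 0 without mice 1 and 5. The median log2 ratio of the 57 was -0.15, -0.21, -0.07, -0.11 and -0.14 in mice 1 to 5, below 0 in every culture. The same genes leaned the same way where no Tregs had been added. In stimulated cultures 0 were higher and 7 lower in IP (12.3%, where 3.56% of all genes were called lower), with a median of -0.12. The difference between cocultures and stimulated cultures had a median of -0.06, was below 0 for 33 of 57 genes, ranged from -0.49 to 0.43 and passed the test for 0 genes (3 at an unadjusted p under 0.05, edgeR).

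Summed, the 57 genes held 6120, 6550, 7610, 6880 and 7100 CPM in IP of the cocultures of mice 1 to 5, and 6820, 7460, 8100, 7640 and 8150 in Input. Each IP library was somewhat below its own Input. IP held 89.8 ± 2.66% of the Input level in cocultures and 89.6 ± 3.39% in stimulated cultures (SD, n = 5 each). These percentages differed by less than the spread between cultures. In IL7-rested cultures the summed level was higher than in cocultures, 10500 ± 639 CPM in IP and 10900 ± 1100 CPM in Input (SD, n = 5).

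Of the 57 genes, 9 were also higher with Tregs than in untreated cells in SPEED Input. They held 1050 ± 179 CPM in IP and 1130 ± 141 in Input of RiboTag cocultures, 679 ± 23 and 717 ± 60.5 in stimulated cultures, and 663 ± 31.1 and 692 ± 47.8 in rested cultures (SD, n = 5 each). Both fractions of the cocultures were above both fractions of the other cultures. Their median log2 change with Tregs was 0.99 in IP and 0.95 in Input, and 5 passed as higher in each (fit by group, without a block). In cocultures IP held 92.7 ± 8.76% of the Input level of the 9 genes, from 81.2% to 104%, and 95.1 ± 5.27% in stimulated cultures. None of the 9 was called higher or lower in IP than in Input of cocultures (edgeR, 0 of 9), and the difference from stimulated cultures passed for 0 of 9, with 0 at an unadjusted p under 0.05. In the same libraries, IP of the identifier span described above was at 10.9% of Input. That span was also low in cultures without Tregs, so it does not gauge how RNA of cells without the tag is recovered. Which cells the RNA of the 9 genes came from was not tested.

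**Figure D4:**
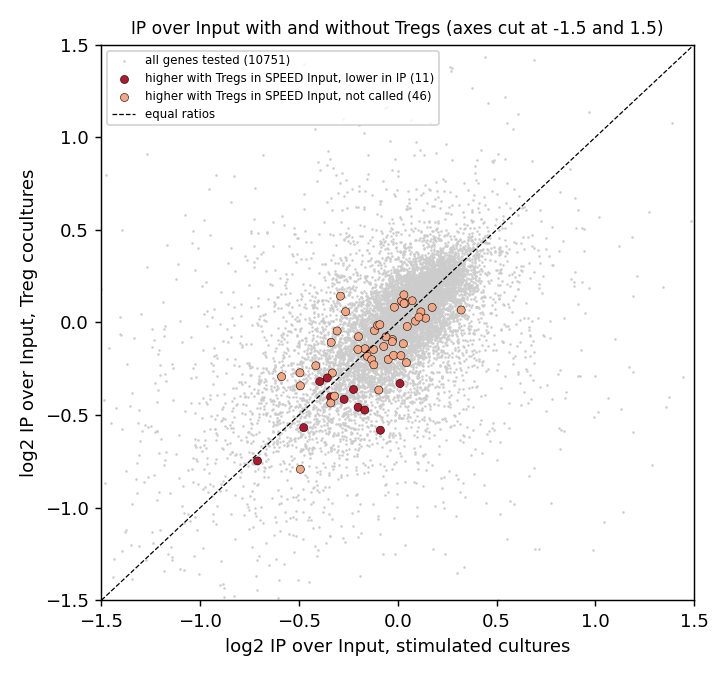
Log2 ratio of IP over Input in Treg cocultures (vertical axis) against that in stimulated cultures (horizontal axis), with grey points for all genes tested. Circles are the 57 genes higher with Tregs in SPEED Input, dark where lower in IP of cocultures (11) and light otherwise (46). The circles lie along the dashed line of equal ratios, with 33 of 57 below it, and points beyond the axes are not drawn.

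Polysome fractions of Treg cocultures of other mice gave a second reading of ribosome association. In SPEED cocultures the test called 3260 genes higher (27.8%) and 2648 lower (22.6%) in Pol, 50.4% of 11731 (n = 4 mice, edgeR with the culture as a block). Of the 635 genes higher in IP, 496 (78.1%) were higher in Pol and 29 lower, where 30.4% of the 10649 genes tested in both assays were higher. Of the 572 genes lower in IP, 292 (51.0%) were lower in Pol and 77 higher, where 23.5% were lower. Abundance moved with these shares. Among the 2627 genes of the most abundant group, 56.5% were higher in Pol, and 377 of the 463 higher in IP (81.4%) were. Among the lower genes of that abundance, 88 of 171 (51.5%) were lower in Pol, where 20.6% of all were. The 496 shared genes are 15.3% of the 3238 higher in Pol among the genes tested in both assays, and the 292 are 11.7% of the 2504 lower.

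Of the 92 falls of 2-fold or more in IP, 60 were lower in Pol than in SubPol, 1 was higher and 31 passed in neither direction, where 23.5% of all genes were lower and 30.4% higher. On the log2 scale the median of the 92 in that comparison was -1.49. The 11 tested genes of the identifier span were all lower in Pol, by -0.59 to -2.59. ENSMUSG00000064337 had 124, 120, 128 and 209 CPM in Pol of mice 1 to 4, against 358, 334, 271 and 502 CPM in SubPol. Pol was lower in each mouse, with a log2 ratio of -1.34 (adjusted p = 6.42e-07, edgeR). ENSMUSG00000022048 had 28.7, 32.9, 34.7 and 26.3 CPM in Pol, against 16.4, 22.9, 19.8 and 14.4 CPM in SubPol, a log2 ratio of 0.74 (adjusted p = 0.011, edgeR). ENSMUSG00000002489 had 15.2, 23, 30.7 and 24.4 CPM in Pol, against 16.8, 11.2, 9.19 and 13.3 CPM in SubPol, and its log2 ratio of 0.89 did not pass (adjusted p = 0.0937, edgeR). Across the 10649 genes the ratios of the assays correlated at r = 0.332 (Spearman's rho 0.301), over genes that share length and base composition in both assays. IP is taken out of Input, whereas Pol and SubPol divide an extract between them, so the sizes of the ratios are not comparable.

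**Figure D5:**
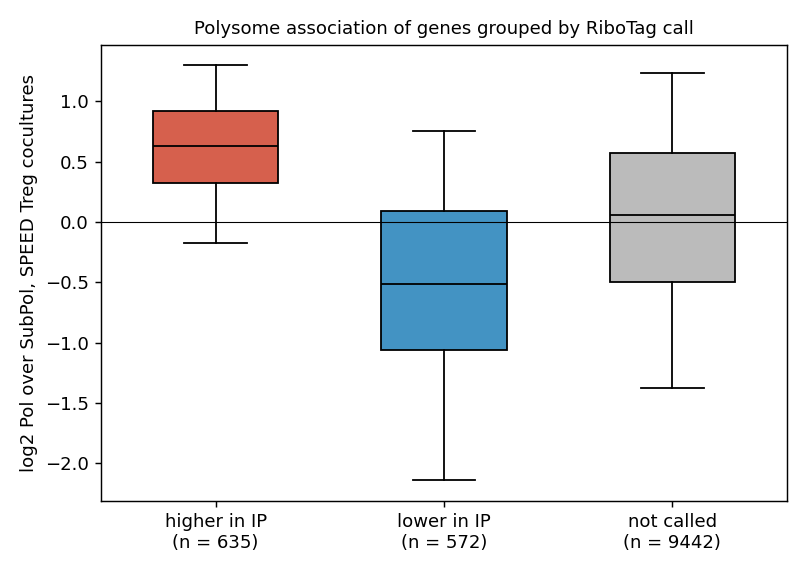
Log2 ratio of Pol over SubPol in SPEED Treg cocultures (vertical axis) for the 635 genes higher in IP, the 572 lower in IP and the 9442 not called in RiboTag. Boxes span the quartiles with the median, and whiskers the 5th to 95th percentile. The medians are 0.63, -0.51 and 0.06.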

How the data were processed

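Each assay had its own table, in which the authors deposited raw, whole-number counts for 53465 Ensembl gene identifiers. Per the submitters' processing notes, reads were handled with SAMtools 1.2, HTSeq 0.4.1, FastQC 0.11.3 and Picard 1.134 on GRCm38, and the sources used here name no aligner. The SMART-Seq v4 kit named in the labels' protocols does not keep strand, and reads of a gene and an antisense partner cannot be told apart. Of the RiboTag columns, 16 matched no sample and were left unused.

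With edgeR 4.0.16 in R 4.3.3, genes were filtered (filterByExpr, minimum count 10, minimum total 15), scaled with TMM and fitted by robust quasi-likelihood, with two-sided tests and Benjamini-Hochberg adjustment at 0.05. All 30 RiboTag libraries entered 1 fit with the culture as a block and an IP effect per kind of culture. The 30 SPEED Pol and SubPol libraries, of untreated, stimulated, Treg and HHT cultures, were fitted likewise. Genes higher with Tregs in SPEED Input came from a fit of 44 libraries without a block, leaving out the later of 2 libraries of the same title. RiboTag changes with Tregs, in IP and in Input, came from a fit of the 30 libraries by group, also without a block. CPM of single genes use TMM-scaled totals, and summed CPM use all counts. Standard errors are the log2 ratio over the square root of F, an approximation that fails where the ratio is close to 0. Intervals built on them carry the same limit. Culture medians used a prior count of 2.

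IP and Input of a number share a mouse, per the labels. Their deviations from the group means correlated at r of 0.19 to 0.466, against a mean of -0.09 with the Input of other mice. Taking deviations from a group mean itself pushes the latter below 0, so it is no separate comparison. All 5 IP libraries correlated best with their own Input. Libraries within a group differed by more than sampling noise (chi-square over its degrees of freedom at least 3.39 in 20 pairs).

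The libraries and lists were chosen with earlier results of these data known. The planned gene lists and the print of Foxp3 and Rpl22 need symbols and were not applied here. The SPEED gene sets, the identifier span, the fits without mice 1 and 5 and the comparison of ratios within mice were chosen after these data were seen. The list of single genes took the 10 largest rises and 10 largest falls past the threshold, with the same sign in all 5 cultures and a log2 CPM averaging 3 or more, and 2 of each are printed. Alternatives were DESeq2 1.42.0, limma 3.58.1 (voom), library totals, no filter, fewer libraries in the fit, no block, an IP effect per mouse, and each mouse left out. The fit was tested on simulated counts.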

Additional observations from a re-analysis of the deposited data

Results flagged for a closer look

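ENSMUSG00000002489, one of the genes called higher in IP than in Input of the cocultures, had 7.68 CPM in the stimulated Input library of mouse 5, where the other 4 stimulated Inputs held 14.6 to 16.9 CPM. ENSMUSG00000022048 had 64.7 CPM in the IL7-rested IP library of mouse 2, where the other 4 held 45.3 to 50 CPM. Both libraries lay far from the rest of their group by Dixon's criterion for 5 samples (0.71 of the range), which chance exceeds in about 1 in 20 groups. More groups than these were screened, so a library this far out can arise by chance alone. Neither library enters the IP over Input ratio of the Treg cocultures. The ratio of IP over Input differed between Treg cocultures and IL7-rested cultures in 18 genes by the test of the difference itself (edgeR), a count that fell to 0 without mouse 3 or mouse 4.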

How the results depend on the processing

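IP over Input of Treg cocultures gave 1207 calls with the culture as a block. In the fit with no replicate block it gave 199 (72 higher, 127 lower), and with mice 1 and 5 both left out 125 (34 higher, 91 lower). Leaving out 1 mouse at a time gave 335 to 773 calls, 90 to 307 higher and 245 to 492 lower. With no filter on low counts 342 genes were higher. DESeq2 (1087), limma-voom (1454), library totals (1093), no filter (1149) and the cocultures alone (1038) kept the total within 1.5 times. The difference from stimulated cultures passed for 3 genes with no filter and for 0 with no replicate block, library totals, DESeq2, limma-voom, the Treg and stimulated libraries alone, any 1 mouse left out, mice 1 and 5 left out, or a replicate block by mouse. The difference from rested cultures, 18 genes, became 63 in DESeq2, 145 with no filter, 1 with no replicate block, 6 with the Treg and rested libraries alone, 29 without mice 1 and 5, 16 with a replicate block by mouse and 0 to 55 with 1 mouse left out. Of the 57 genes raised with Tregs in SPEED Input, 11 were lower in IP. The count was 1 with no replicate block, 5 to 11 with 1 mouse left out, 0 without mice 1 and 5, 24 of 113 when the genes were chosen with the mouse as a block, and 0 of the 9 also higher than in untreated cells. Pol over SubPol counts stayed within 1.5 times in every setting run. Of the 92 falls of 2-fold or more in IP, 57 were still called lower without the block, 51 without mouse 5 and 32 without mice 1 and 5, and of the 11 genes of the span 11, 11 and 10 were. DESeq2 kept 61 of the 92 and 9 of the 11, and the fit of the cocultures alone kept 67 and 9. The cause of these changes was not tested. Depth limits low genes: the median standard error was 0.511 below a log2 CPM of 3.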
